A study of Mus musculus with 6 samples.

Results

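The 9 genes described here, of 55376 in the tables, encode cytosolic factors of translation elongation and termination, and were followed through an RNA immunoprecipitation sequencing (RIP-seq) experiment on CPEB1 in mouse muscle stem cells. They were chosen by symbol and are Eef1a1, Eef1a2, Eef1b2, Eef1d, Eef1g, Eef2, Eef2k, Etf1 and Gspt1. Satellite cells (SCs) were freshly isolated (fiSCs) by cell sorting from C57BL/6 mice aged 3 months, and no treatment or genotype differed between the groups. RNA came from 2 CPEB1 immunoprecipitates made with an anti-CPEB1 antibody (CPEB1 IP), 2 control immunoprecipitates made with IgG, and 2 samples of unselected input RNA, and the series describes its replicates as biological ones. The study's methods describe no crosslinking step, so CPEB1 IP holds RNA that came down with CPEB1 from a cell lysate, bound directly or not.

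During elongation, eEF1A carries each aminoacyl-tRNA to the ribosome as a GTP complex, the eEF1B complex recharges eEF1A with GTP, and eEF2 moves the ribosome along the mRNA by 1 codon. The kinase eEF2K phosphorylates eEF2 and slows elongation. At a stop codon, eRF1 (from Etf1) recognizes the codon and, together with the GTPase eRF3 (from Gspt1), releases the finished protein. CPEB1 is known for binding cytoplasmic polyadenylation elements (CPEs), short U-rich motifs in 3′ UTRs, through which it represses or activates translation.

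The counts assigned to genes ran from 1284716 to 4941653 per library, lowest in IgG, and these were 39.1 to 39.5% of the library total behind the FPKM in IgG against 69.5 to 79.8% in the other 4 libraries. Genes with a count were most numerous in IgG, at 32381 and 32328, against 25280 and 29465 in CPEB1 IP and 21150 and 20158 in input. The 9 members took 0.565 to 0.696% of the counts on genes. The sorted cell type was checked against its markers: all 9 satellite cell markers had counts in every library, with a sum of 9430 to 12477 CPM (counts scaled to 1000000 per library, TMM-normalized over the 6 libraries). This sum was lowest in IgG (9430 and 9480 CPM), overlapped between CPEB1 IP and input, and does not show single markers. Pax7 alone had 10.1 and 10.8 FPKM for CPEB1 IP, 6.41 and 5.45 for IgG and 39.8 and 46.0 for input. Its counts were 218 and 448, 122 and 111, and 1072 and 1120 in the same order. The FPKM rest on the library totals, so the lower Pax7 FPKM in IgG than in CPEB1 IP depends on that scaling. Markers of other cells were also present, and 3 lists did not overlap between the groups: the 6 endothelial markers summed to 332 and 355 CPM for CPEB1 IP, 247 and 258 CPM for IgG and 125 and 119 CPM for input, the 6 fibro-adipogenic markers to 1295 and 1255, 999.5 and 962, and 2366 and 2402 CPM, and the 5 glial and Schwann markers to 167 and 171, 152 and 104, and 77.3 and 81.6 CPM, in the same order. All endothelial and fibro-adipogenic markers had counts in every library, and of the glial ones S100b was at 0 in input replicate 1. The 6 immune markers summed to 11.2 to 52.4 CPM, highest in IgG, with Ptprc and Itgam at 0 in CPEB1 IP replicate 1 and input replicate 1, Cd3e at 0 in the latter and Adgre1 at 0 in input replicate 2. Their part in the results that follow was not tested. The groups are RNA fractions from fiSC lysates, so a difference in these sums need not be a difference in cells. Within the bulk RNA of a library, fewer cells of a type and less RNA per cell cannot be told apart.

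CPEs were searched on the transcript strand of the longest annotated 3′ UTR of each gene (GENCODE M21 on mm10) as the canonical motif TTTTAT, its longer canonical form TTTTAAT, and 7 other motifs. Of these others, the shortest were TTTTACT and, with its bases in another order, TTTTCAT. The longer ones were TTTTAAAT, TTTTAACT, TTTTAAGT, TTTTAATT and TTTTAAAGT. A TTTTAATT also counts as the TTTTAAT it contains. At least 1 canonical motif was present in 56.6% of the 21028 protein-coding genes with a 3′ UTR, and any of the 9 motifs in 64.7%. Of the members, 4 of 9 had a canonical motif and 5 of 9 had any. The 3′ UTR of Eef1a1 is 285 bases long and held 1 canonical motif, which ends 69 bases before the end of the UTR, and 24.6% of the 1618 genes with a UTR within 20% of that length held one. Eef2k (4059 bases) held 3 canonical motifs, Etf1 (2203 bases) 3 and Gspt1 (1535 bases) 4, at lengths where 94.2, 86.1 and 74.8% of genes held at least 1. Eef1d (1348 bases) had only a TTTTAAGT. No motif was found in Eef2 (416 bases), Eef1g (377 bases), Eef1b2 (874 bases) or Eef1a2 (326 bases), and 45.4, 42.3, 70.2 and 38.8% of genes of like length held any. The windows below are shown because they are the matches to the element CPEB1 is known for (matches of letters, not sites measured here), with the motif in capitals, 5′ to 3′ on the transcript strand in mm10. They are the canonical site of Eef1a1 (chr9:78478507-78478534, minus strand), the only motif of Eef1d (chr15:75894504-75894531, minus strand), the canonical sites of Eef2k in order along the UTR (chr7:120903459-120903486, chr7:120905195-120905222 and chr7:120906042-120906069, plus strand), and the sites of Gspt1 that lie 1066 and 456 bases before the UTR end (chr16:11220347-11220374 and chr16:11219737-11219764, minus strand).
Eef1a1 canonical site: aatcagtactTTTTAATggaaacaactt
Eef1d only motif: gctcccgcccTTTTAAGTtgttttgcct
Eef2k first canonical site: gggagaagcagTTTTATtatggtataaa
Eef2k second canonical site: tgtttttgttTTTTAATtagtaccagaa
Eef2k last canonical site: gtcactgggagTTTTATgccagattggg
Gspt1 site far from the UTR end: tgaatactgttTTTTATcttaatgtaac
Gspt1 site nearest the UTR end: tacagaataggTTTTATctcaattattt

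**Figure D1:**
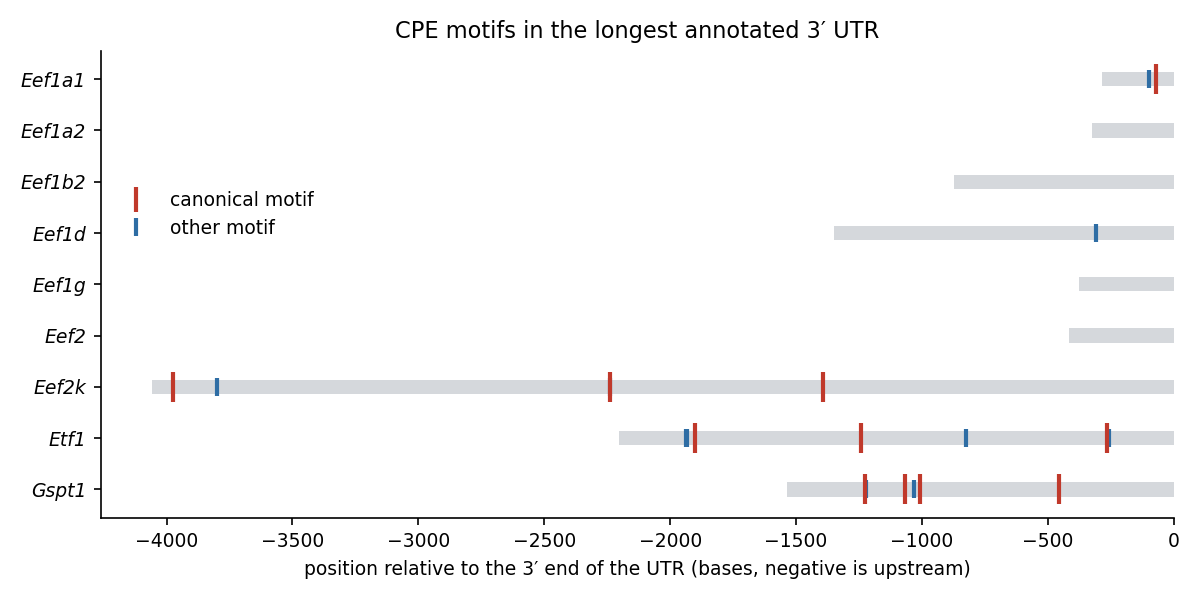
Each grey bar is the longest annotated 3′ UTR of a member, drawn to scale in bases and aligned at its 3′ end, with red ticks for canonical CPE motifs and blue ticks for the other motifs searched. Motifs are seen in 5 of 9 members, and the bars of Eef2, Eef1g, Eef1b2 and Eef1a2 carry none.

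By level per exon length (FPKM), the members spanned more than 3 orders of magnitude, and their order in input was Eef1a1, Eef2, Eef1g, Eef1b2, Etf1, Eef1d, Gspt1, Eef2k and Eef1a2. Mean FPKM in input was 901 ± 170 for Eef1a1, 398 ± 52.0 for Eef2, 138 ± 26.5 for Eef1g, 85.8 ± 20.5 for Eef1b2, 61.7 ± 14.1 for Etf1, 20.4 ± 2.28 for Eef1d, 11.8 ± 2.56 for Gspt1 and 2.21 ± 0.509 for Eef2k (SD, n = 2). Eef1b2 and Etf1 were the only neighbours in this order whose input libraries overlapped. Eef1a1 ranked between 13 and 15 among all genes by FPKM in each of the 6 libraries, and Eef2 between 49 and 77. In CPEB1 IP the order was the same, with overlap between Eef1g (123 and 117 FPKM) and Eef1b2 (122 and 114 FPKM) in place of Eef1b2 and Etf1. In IgG, Eef1b2 (73.9 and 72.8 FPKM) stood above Eef1g (59.0 and 55.9 FPKM) with no overlap, and Eef1d and Gspt1 overlapped.

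**Figure D2:**
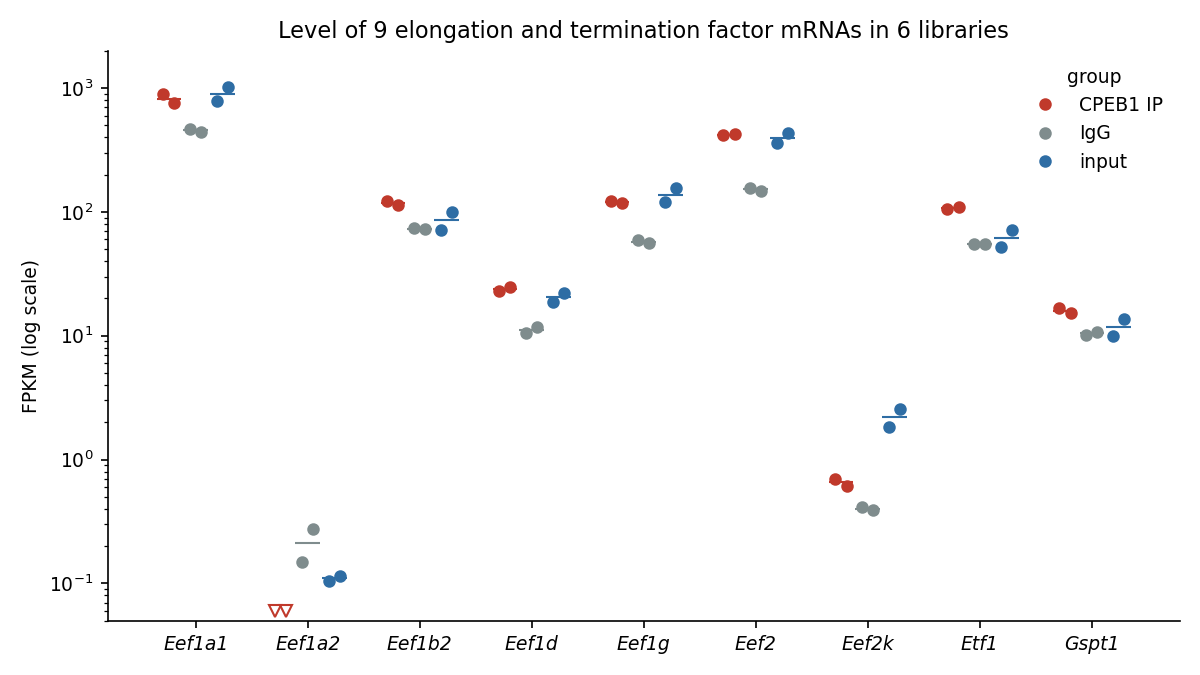
Each point is the FPKM of one member in one library on a log axis, horizontal lines are the means of the 2 libraries of a group, and open triangles mark Eef1a2 in CPEB1 IP, where it had 0 counts. Eef1a1 lies between 446 and 1022 FPKM in all libraries, and Eef2k is lower in both precipitates than in input.

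Differences between groups were tested on the raw counts with edgeR's quasi-likelihood test, with a log2 fold change and its standard error (SE), and adjusted p-values over all genes tested. Of the 9 members, 8 passed the filter on low counts and Eef1a2 did not. Against IgG, Eef2, Eef1d and Eef1g were called higher in CPEB1 IP (adjusted p under 0.05), which is 3 of 8 tested members beside 14.7% of the 12124 genes tested, and none was called lower, beside 18.7%. DESeq2 called 5 of the members higher and 0 lower, and at an unadjusted p under 0.05 edgeR also had 0 of the 8 lower. Against input, 4 members were called higher in CPEB1 IP and 1 lower, beside 17.0% and 15.8% of 12171 genes. In IgG against input, 3 were called higher and 3 lower, beside 21.4% and 19.4% of 12980 genes. With the library totals of the FPKM, this last split became 0 higher and 5 lower among the members and 551 higher and 7172 lower over all genes. The median log2 fold change of the 8 members was 0.11 against IgG (-0.01 over all genes tested) and 0.35 against input (0.00 over all genes tested), and -0.04 in IgG against input (0.03 over all genes tested). These comparisons share libraries with each other, so their values are given side by side and are not independent.

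**Figure D3:**
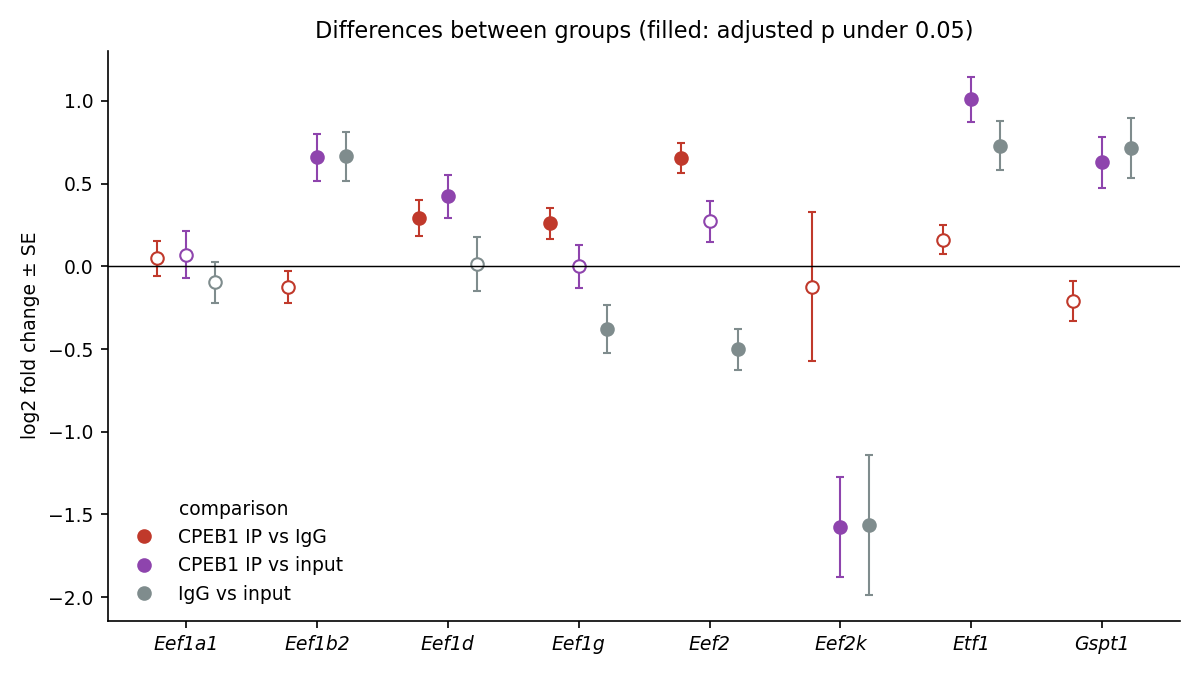
Points are log2 fold changes from edgeR and bars are ± 1 SE for the 8 members tested, coloured by comparison and filled where the adjusted p is under 0.05. Eef2 stands at 0.66 in CPEB1 IP against IgG, Etf1, Eef1b2 and Gspt1 lie above 0 against input in both precipitates, and Eef2k lies near -1.6 in both.

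Eef2 (ENSMUSG00000034994, chr10:81176631-81182498, plus strand), the translocation factor, was the member that differed most from IgG. It had 2105 and 2069 CPM for CPEB1 IP, 1290 and 1240 CPM for IgG and 1694 and 1887 CPM for input. In CPM, both CPEB1 IP values were above both input values, and both input values above both IgG values. Eef2 was 1.58-fold higher in CPEB1 IP than in IgG (log2 fold change 0.66 ± 0.09 SE, edgeR adjusted p = 2.9e-05). It was called in each of the 12 alternatives, with log2 fold changes of 0.64 to 1.46, and stood 0.62 to 0.68 above the median, in each alternative, of the genes tested with TMM. Against input, the value in CPEB1 IP was 0.27 ± 0.12 and did not pass the test (edgeR adjusted p = 0.11), although it passed without input replicate 2 (0.34, adjusted p = 0.0048). IgG was lower than input by -0.50 ± 0.13 (edgeR adjusted p = 0.0014), a call that did not hold when IgG replicate 1 (adjusted p = 0.092) or IgG replicate 2 (adjusted p = 0.15) was left out. Of the 75-base windows of the Eef2 transcript, 2.59% were shared exactly with the pseudogenes Gm13050 and Gm11400, whose counts were 0.851 to 2.11% of those of Eef2.

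The kinase that acts on eEF2 was lower in both precipitates than in input. Eef2k (ENSMUSG00000035064, chr7:120842831-120907450, plus strand) had 19 and 32 counts for CPEB1 IP, 10 and 10 for IgG and 63 and 79 for input. In CPM, CPEB1 IP had 7.92 and 6.61, IgG 7.60 and 7.28, and input 19.3 and 24.9. Both precipitates lay below input with no overlap, and CPEB1 IP and IgG overlapped. Compared with input, Eef2k was lower in CPEB1 IP (log2 fold change -1.57 ± 0.30 SE, edgeR adjusted p = 0.0018, called in 12 of 12 alternatives) and in IgG (-1.56 ± 0.42, edgeR adjusted p = 0.0028), the latter not by DESeq2 (adjusted p = 0.082). CPEB1 IP and IgG differed by -0.12 ± 0.45 (edgeR adjusted p = 0.87), and with 10 counts in each IgG library a difference of the size seen for Eef2 was not detectable at this depth. Its sign also turned with the scaling, to 0.17 in DESeq2 and 0.68 with the library totals of the FPKM. The antisense gene Gm15774, which overlaps 101 exon bases of Eef2k, had 4 and 1 counts in IgG, 40 and 10% of those of Eef2k. It had 0 in both CPEB1 IP libraries and 0 and 2 in input. With its counts added, the value was -0.44 against IgG (edgeR adjusted p = 0.47) and -1.26 in IgG against input (edgeR adjusted p = 0.011). Within a library, the FPKM of Eef2k was 0.156% of that of Eef2 in CPEB1 IP, 0.264% in IgG and 0.552% in input (means of 2 libraries), and the 3 groups did not overlap.

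Among the carriers of aminoacyl-tRNA, Eef1a1 was the most abundant member and Eef1a2, the form of adult muscle fibre, heart and brain, had at most 2 counts in a library. Eef1a1 (ENSMUSG00000037742, chr9:78478449-78489151, minus strand) had 3399 and 2758 CPM for CPEB1 IP, 2867 and 2813 CPM for IgG and 2749 and 3329 CPM for input. The groups overlapped in all 3 comparisons. Its log2 fold change was 0.05 ± 0.11 (SE) in CPEB1 IP against IgG (edgeR adjusted p = 0.76), 0.07 ± 0.14 in CPEB1 IP against input (adjusted p = 0.74) and -0.10 ± 0.12 in IgG against input (adjusted p = 0.55). The last was called lower with the library totals of the FPKM (-0.98, adjusted p = 4.5e-06), without the filter on low counts (-0.37, adjusted p = 0.025) and when input replicate 1 was left out (-0.21, adjusted p = 0.0057). In IgG against input, the median of the genes tested with TMM was -0.93 with the library totals of the FPKM and -0.24 without the filter. Against IgG, this median was 0.27 in DESeq2, 0.39 without the filter and 0.84 with the library totals of the FPKM. Eef1a1 was called higher than IgG by DESeq2 (0.33, adjusted p = 0.026) and without the filter (0.44, adjusted p = 1.5e-05). With the library totals of the FPKM it stood at 0.85 (adjusted p = 6.4e-09). It was also called when CPEB1 IP replicate 2 was left out (0.22, adjusted p = 0.0049), and stood at -0.07 when CPEB1 IP replicate 1 was (adjusted p = 0.46). Of the 75-base windows of Eef1a1, 41.7% were shared exactly with other annotated genes, among them 13 pseudogenes (led by Gm13456, Gm6170 and Gm6548), so its reads could be split with them. The counts of these copies were 3.42 to 4.45% of those of Eef1a1, and adding them changed no call of Eef1a1.

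Eef1a2 (ENSMUSG00000016349, chr2:181147653-181157014, minus strand) had 0 and 0 counts for CPEB1 IP, 1 and 2 for IgG and 1 and 1 for input. A count of 0 allows up to 3 counts, or 1.25 and 0.619 CPM in the CPEB1 IP libraries, so no fold change is given. The 9 myofibre markers mark the cells where Eef1a2 is known to be used. Their sums were low, at 193 and 213 CPM for CPEB1 IP, 172 and 156 CPM for IgG and 169 and 149 CPM for input. Tnnc2 was at 0 in IgG replicate 2 and input replicate 1, and the other markers had counts in every library. No difference in Eef1a2 was detectable at this depth.

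The 3 subunits of the eEF1B exchange complex had different calls, and the difference between subunits was not tested. Eef1g (ENSMUSG00000071644, chr19:8967041-8978479, plus strand), the structural subunit, had 489 and 448 CPM for CPEB1 IP, 378 and 368 CPM for IgG and 438 and 533 CPM for input. Eef1d (ENSMUSG00000055762, chr15:75894205-75909556, minus strand), a nucleotide exchange subunit, had 226 and 238 CPM, 169 and 194 CPM, and 172 and 186 CPM in the same order. For both, the CPEB1 IP libraries were above the IgG libraries, and for Eef1d they were also above input.

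Eef1g was 1.20-fold higher in CPEB1 IP than in IgG (log2 fold change 0.26 ± 0.09 SE, edgeR adjusted p = 0.040) and Eef1d 1.22-fold higher (0.29 ± 0.11, edgeR adjusted p = 0.045). Both calls were near the threshold. Eef1g kept its call in 8 of 12 alternatives and among the libraries left out lost it for CPEB1 IP replicate 1 (adjusted p = 0.13) and IgG replicate 2 (adjusted p = 0.093), and Eef1d kept its call in 5 of 12 and lost it without CPEB1 IP replicate 1 (0.059), CPEB1 IP replicate 2 (0.22) or IgG replicate 1 (0.16). Against input, Eef1g was at 0.00 ± 0.13 in CPEB1 IP (edgeR adjusted p = 0.999) and lower in IgG (-0.38 ± 0.14, edgeR adjusted p = 0.032), a call lost without IgG replicate 1 (0.23), IgG replicate 2 (0.29) or input replicate 2 (0.072). Eef1d was higher in CPEB1 IP than in input (0.42 ± 0.13, edgeR adjusted p = 0.024), not by DESeq2 (adjusted p = 0.073), nor without CPEB1 IP replicate 1 (0.17) or CPEB1 IP replicate 2 (0.38). This call of Eef1d over input was kept in 5 of 12 alternatives. It was also lost with the counts on genes (adjusted p = 0.060) or the library totals of the FPKM (0.30) as library size. Without the filter (0.061) and with a replicate block (0.056) it was lost too. In IgG, Eef1d stood at 0.02 ± 0.16 relative to input (edgeR adjusted p = 0.95). Of the windows of Eef1g, 56.5% were shared with 4 pseudogenes, mostly Gm4366, whose counts together were 6.14 to 8.20% of those of Eef1g. Eef1d shares 277 exon bases with Naprt on the same strand. The counts of Naprt and the pseudogene Gm11675 together were 2.21 to 10.7% of those of Eef1d, highest in input replicate 1. With them added, Eef1d was no longer called against IgG (0.27, edgeR adjusted p = 0.065). In CPEB1 IP against input it stayed called (0.36, edgeR adjusted p = 0.046).

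Eef1b2 (ENSMUSG00000025967, chr1:63176825-63180486, plus strand), the other exchange subunit, had 472 and 422 CPM for CPEB1 IP, 462 and 467 CPM for IgG and 255 and 332 CPM for input. Both precipitates were above input with no overlap. Eef1b2 was higher than input by 0.66 ± 0.14 on the log2 scale in CPEB1 IP (edgeR adjusted p = 0.0036) and by 0.66 ± 0.15 in IgG (edgeR adjusted p = 0.00038). The former needed CPEB1 IP replicate 1 (adjusted p = 0.070 when it was left out), and the latter turned to -0.22 with the library totals of the FPKM (adjusted p = 0.28). With these totals, the median of the genes tested with TMM was -0.93 in IgG against input. In that comparison Eef1b2 stood 0.50 to 0.84 above the median of each alternative. CPEB1 IP was at -0.12 ± 0.09 relative to IgG (edgeR adjusted p = 0.34). This value turned to 0.16 in DESeq2 and to 0.68 with the library totals of the FPKM (adjusted p = 5.0e-07). The FPKM of Eef1b2 was 97.9% of that of Eef1g in CPEB1 IP, 128% in IgG and 61.8% in input, a ratio within each library that no scaling can change, and the 3 groups did not overlap.

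The release factors Etf1 and Gspt1 were higher in both precipitates than in input. Etf1 (ENSMUSG00000024360, on chromosome 18, minus strand), which reads the stop codon, had 600 and 599 CPM for CPEB1 IP, 504 and 520 CPM for IgG and 271 and 347 CPM for input. The groups did not overlap in any comparison. Etf1 was 2.01-fold higher in CPEB1 IP than in input (log2 fold change 1.01 ± 0.14 SE, edgeR adjusted p = 0.00016, called in 12 of 12 alternatives), the largest rise of a member over input in this fit. It was also higher in IgG than in input (0.73 ± 0.15, edgeR adjusted p = 9.7e-05). With the library totals of the FPKM the value was -0.16 (adjusted p = 0.44), where the median of the genes tested with TMM was -0.93. In IgG against input, Etf1 stood 0.58 to 0.89 above the median of each alternative. Between CPEB1 IP and IgG the value was 0.16 ± 0.09 (edgeR adjusted p = 0.18), called only by DESeq2 (0.45, adjusted p = 2.8e-05), without the filter on low counts (0.56) and with the library totals of the FPKM (0.97). No 75-base window of Etf1 was shared with another annotated gene.

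Gspt1 (ENSMUSG00000062203, chr16:11219292-11254325, minus strand), the GTPase partner of eRF1, had 138 and 121 CPM for CPEB1 IP, 137 and 148 CPM for IgG and 76.7 and 96.7 CPM for input. Both precipitates lay above input. The rise over input was 0.63 ± 0.15 on the log2 scale in CPEB1 IP (edgeR adjusted p = 0.0077), not called when CPEB1 IP replicate 1 was left out (adjusted p = 0.12), and 0.72 ± 0.18 in IgG (edgeR adjusted p = 0.0015), lost in DESeq2 (0.13) and without IgG replicate 2 (0.067), and turned to -0.17 with the library totals of the FPKM. With these totals, the median of the genes tested with TMM was -0.93 in IgG against input. In that comparison Gspt1 stood 0.58 to 0.86 above the median of each alternative. Relative to IgG, CPEB1 IP was at -0.21 ± 0.12 (edgeR adjusted p = 0.21), or 0.08 in DESeq2 and 0.60 with the library totals of the FPKM. The FPKM of Gspt1 was 14.8% of that of Etf1 in CPEB1 IP, 19.0% in IgG and 19.2% in input, with CPEB1 IP below the other 4 libraries. The antisense gene 2610020C07Rik overlaps 239 of its exon bases, and whether the counting used strand is not given in the sources used here.

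**Figure D4:**
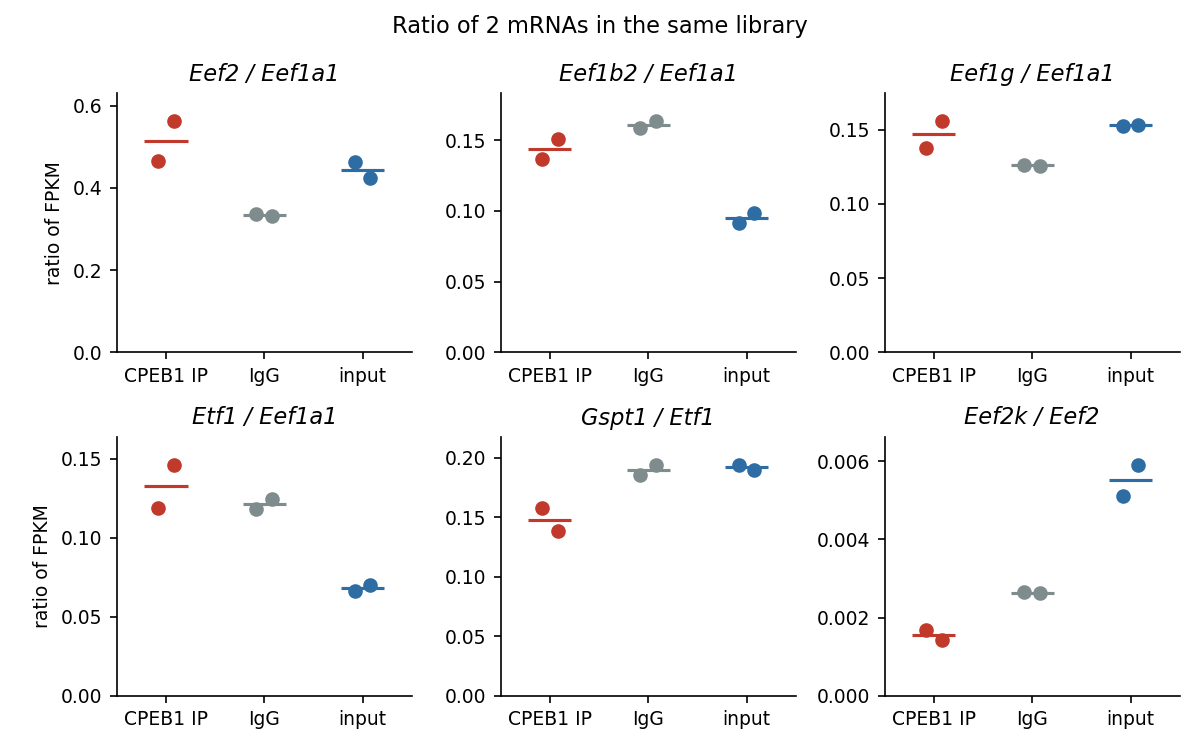
Each panel gives the FPKM of one member divided by that of another in the same library, with a point per library and a line at the mean of the 2 libraries. The ratio of Eef2 to Eef1a1 is 0.331 to 0.337 in IgG and 0.425 to 0.563 in the other libraries, and the ratio of Eef2k to Eef2 is highest in input.

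Ratios of members within a library do not depend on the scaling. The ratio of Eef2 to Eef1a1 was 0.465 and 0.563 in CPEB1 IP, against 0.337 and 0.331 in IgG and 0.462 and 0.425 in input. IgG was below the other groups, and CPEB1 IP was above input by a margin smaller than its own spread. For Etf1 the ratio to Eef1a1 was 0.119 and 0.146 for CPEB1 IP, 0.118 and 0.124 for IgG and 0.0662 and 0.0701 for input, so that CPEB1 IP and IgG overlapped and both were above input.

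Under the 6 scalings drawn, Eef2 and Eef1g were called higher than IgG in each, Eef2k in none, and the calls of the other members depended on the scaling. Over the 12124 genes tested with TMM, the median log2 fold change in CPEB1 IP against IgG was -0.01 with TMM, 0.27 in DESeq2, 0.39 without the filter on low counts and 0.84 with the library totals of the FPKM. Over all the genes that each of these settings tested, low counts included, it was -1.07 in DESeq2 (18800 genes) and -0.90 without the filter (42045 genes). Of the 8 members tested with TMM, Eef2 had the highest and Gspt1 the lowest value in all 6 scalings drawn. But the number of members called higher was 3 with TMM, 5 in DESeq2, 5 without the filter and 7 with the library totals of the FPKM, and none was called lower in any. Over all genes, 1779 were called higher and 2265 lower with TMM, and 7212 higher and 521 lower with the library totals of the FPKM.

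**Figure D5:**
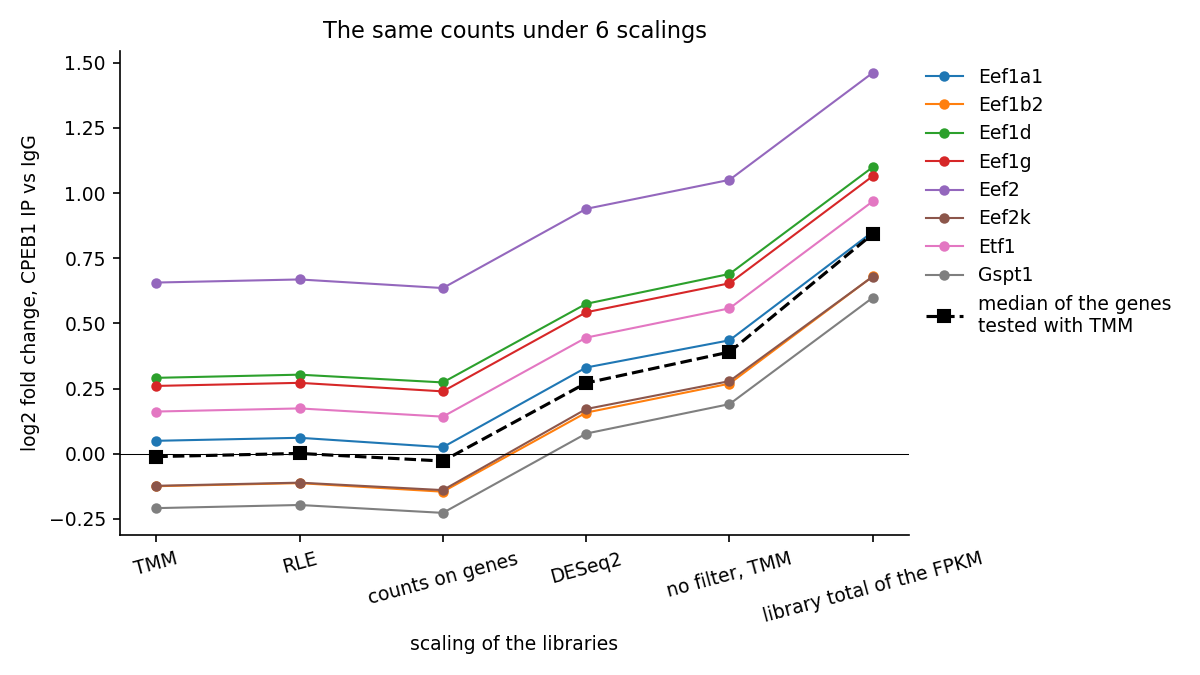
Lines join the log2 fold change of each tested member in CPEB1 IP against IgG under 6 scalings of the same counts, and the dashed line with squares is the median of the genes tested with TMM. Eef2 is highest and Gspt1 lowest throughout, and the median moves from -0.01 to 0.84.

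The study's methods ask for an FPKM ratio of CPEB1 IP over IgG above 2 in each experiment, beside an adjusted p from DESeq2. Here 1 was added to each FPKM before the ratio. The ratios were 2.62 and 2.87 for Eef2, 2.07 and 2.08 for Eef1g and 2.06 and 2.03 for Eef1d, which passed. Etf1 fell just outside at 1.90 and 1.97, followed by Eef1a1 at 1.91 and 1.69, Eef1b2 at 1.64 and 1.55, Gspt1 at 1.58 and 1.38 and Eef2k at 1.20 and 1.16. So 3 of 8 tested members met it, beside 14.4% of the 12124 genes tested, and the same 3 met it together with the edgeR call, beside 12.1%. The median ratio of all tested genes was 1.45 in experiment 1 and 1.52 in experiment 2. With TMM library sizes in place of the library totals, the ratios of Eef2 were 1.63 and 1.67 and no member met the criterion.

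Other genes of the pathway, taken from 4 fixed lists, were compared with the members. Of the other cytosolic elongation, termination and ribosome rescue factors, 5 of 10 tested were called higher in CPEB1 IP than in IgG and 0 lower, beside 14.7% and 18.7% of all genes tested, with a median log2 fold change of 0.46 (-0.01 over all genes tested). Eif5a, the hypusine-bearing factor that helps the ribosome through difficult peptide bonds, was higher by 0.48 ± 0.09 (edgeR adjusted p = 0.00062), with 2019 and 1822 CPM for CPEB1 IP, 1281 and 1350 CPM for IgG and 1305 and 1447 CPM for input. Abce1, which splits ribosomes after termination, was higher by 0.49 ± 0.11 (adjusted p = 0.0016), Gtpbp1, a translational GTPase, by 0.58 ± 0.16 (adjusted p = 0.0068) and Eefsec, the carrier of selenocysteine-tRNA, by 1.09 ± 0.39 (adjusted p = 0.037). Eefsec was at the same time lower in CPEB1 IP than in input (-1.12 ± 0.28, edgeR adjusted p = 0.0089). In IgG against input, 0 of 11 in this list were called higher and 2 lower, beside 21.4% and 19.4%.

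Of the mitochondrial elongation, release and recycling factors, 1 of 8 was called higher in CPEB1 IP than in IgG and 0 lower (median 0.26), a share near the 14.7% of all genes tested. The one called was Tufm, the mitochondrial counterpart of eEF1A, with a log2 fold change of 0.63 ± 0.20 (edgeR adjusted p = 0.018). Gfm1, the mitochondrial translocation factor, was at 0.66 ± 0.30 and did not pass (edgeR adjusted p = 0.098). Of the enzymes that modify elongation and release factors, 2 of 16 were called higher and 0 lower (median 0.20), again near the 14.7% of all genes tested. These were Dph6, which completes the diphthamide residue on eEF2 (0.90 ± 0.29, edgeR adjusted p = 0.022), and Dohh, which completes hypusine on eIF5A (0.57 ± 0.19, edgeR adjusted p = 0.026).

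Of the regulators of Eef2k, 2 of 6 were called higher in CPEB1 IP than in IgG and 0 lower (median 0.44), beside 14.7% and 18.7% of all genes tested. Calm2 encodes calmodulin, whose calcium-bound form activates eEF2K, and was higher by 0.50 ± 0.10 (edgeR adjusted p = 0.00054), with 632 and 597 CPM for CPEB1 IP, 381 and 446 CPM for IgG and 497 and 644 CPM for input. The CPEB1 IP libraries were above those of IgG and overlapped with input, and the value against input did not pass the test (0.16 ± 0.14, edgeR adjusted p = 0.40). Against input, 3 of 7 in this list were called higher in CPEB1 IP and 2 lower (17.0% and 15.8% of all genes tested), and 1 higher and 3 lower in IgG (21.4% and 19.4%). DESeq2 also called higher each list gene named here as called against IgG.

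The genes whose profile over the 6 libraries was most like that of a member were found by the Euclidean distance between log2 CPM values centred on each gene's own mean, among the genes of mean FPKM over 1 (10465 compared with each member). For Eef2 these were Tufm (distance 0.0874), Psmc1, a proteasome ATPase (0.0997), and Rrp1, a nucleolar protein (0.104). Etf1 was nearest to Rxrb (0.105), Rab22a (0.123) and Ube2k (0.144), Eef1a1 to Actr2 (0.112), Gm6136 (0.113) and Fcho2 (0.121), and Eef2k to Cog7 (0.182), Abca8a (0.191) and Elmsan1 (0.211). Among the members, the one most like Etf1 was Eef1b2 at place 202 of 10465 (0.390), then Gspt1 at place 346 (0.451), and the one most like Eef2 was Eef1g at place 572 (0.420). Eef2k lay at place 8886 from Eef2 (1.78). The distances describe 6 libraries from 3 groups of 2 and carry no test.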

How the data were processed

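RIP-seq libraries were prepared with SMART-seq2 from fiSC lysates and sequenced as read pairs of 75 bases. Reads were mapped to mm10 by the authors with HISAT and counted on genes with featureCounts. The authors deposited raw counts, 1 column per library, with no normalization. The deposited FPKM were computed by the authors from the counts, the exon length and the total of each library, which is larger than what was counted on genes, for IgG in a table of its own. The submitters' processing notes also name StringTie. The annotation release, the strand setting and how reads with several possible positions were handled are not given in the sources used here.

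Counts (1284716 to 4941653 per library) were tested in R 4.3.3 with edgeR 4.0.16 (filterByExpr, TMM, quasi-likelihood test, Benjamini-Hochberg adjustment over all genes, threshold 0.05), 2 groups at a time. The SE is the size of the log2 fold change divided by the square root of F. DESeq2 1.42.0 was the other count test, with limma 3.58.1 loaded by edgeR, and Python 3.11.15 (numpy 2.4.6, pandas 2.3.3, matplotlib 3.10.9) did the rest. The procedure was tested on simulated counts. CPM values are TMM-normalized over the 6 libraries, with 0.5 added before the log2 of the likeness. Alternatives were RLE, counts on genes or the FPKM totals as library size, no filter, a replicate block, all 6 libraries in 1 fit, counts of near-identical copies added, each library left out, and pseudocounts of 0.1 and 5, TMM library sizes and crossed pairs for the FPKM ratio. Copies were annotated GENCODE M21 transcripts sharing an exact 75-base window, since no genome sequence was used here. All sample columns were used. With 2 libraries a group, the error of a gene is estimated with help from all genes.

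Genes named are the 9 members, up to 4 called genes of each of 4 pathway lists with the largest fold change against IgG (the 2 highest in input where fewer than 2 passed), the 3 genes most like Eef1a1, Eef2, Eef2k and Etf1, and up to 3 copies of a member. An item that this rule selects is not reported here. Members and lists were chosen with earlier results of these data known.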

Additional observations from a re-analysis of the deposited data

How the results depend on the processing

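Of 288 refits of a member's log2 fold change, 217 kept their direction and their side of the threshold. The number of members called in CPEB1 IP against IgG was 3, and became 5 in DESeq2, 5 without the filter on low counts, 7 with the library totals of the FPKM and 1 with all 6 libraries in 1 fit. It was 1 to 3 with a library left out. Against input, 5 members were called in CPEB1 IP, 3 with the library totals of the FPKM and 2 to 6 with a library left out, and 6 were called in IgG and 3 to 7 with a library left out. Members over the FPKM ratio criterion were 3, but 0 with TMM library sizes and 1 with crossed pairs. Genes called numbered 4044 against IgG (7733 with the library totals of the FPKM, 1731 to 3533 with a library left out), 3990 in CPEB1 IP against input (2406 in DESeq2, 2043 to 4993) and 5287 in IgG against input (2616 in DESeq2, 3064 to 4570).

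The log2 fold changes that changed sign were, against IgG, Eef1b2 (0.16 in DESeq2, 0.68 with the library totals of the FPKM, 0.27 without the filter), Eef2k (0.17, 0.68 and 0.28) and Gspt1 (0.077, 0.60 and 0.19). In CPEB1 IP against input, Eef1a1 was at -0.011 with the counts on genes and -0.13 with the library totals of the FPKM. In IgG against input, the library totals of the FPKM gave -0.22 for Eef1b2, -0.87 for Eef1d, -0.16 for Etf1 and -0.17 for Gspt1, and Eef1d was at -0.13 in DESeq2, -0.26 without the filter and -0.022 with copies added. With a library left out, the ranges that crossed 0 were -0.07 to 0.22 for Eef1a1 and -0.20 to 0.047 for Eef2k against IgG, -0.084 to 0.20 for Eef1a1 and -0.16 to 0.13 for Eef1g in CPEB1 IP against input, and -0.21 to 0.024 for Eef1a1 and -0.11 to 0.094 for Eef1d in IgG against input. The library totals of the FPKM, DESeq2 and the fit without the filter also move the median of the genes tested with TMM. Against IgG it was 0.84, 0.27 and 0.39 in this order (-0.01 with TMM), and in IgG against input -0.93, -0.11 and -0.24 (0.03 with TMM). Relative to the median of each alternative, the values against IgG were -0.20 to -0.04 for Eef1b2, -0.29 to -0.10 for Gspt1 and -0.43 to 0.03 for Eef2k. The cause of the changes of sign was not tested.

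Replicate numbers were not shown to pair the libraries: deviations of same-numbered libraries had correlations of -0.0107, -0.0206 and 0.0324 across 14276 genes. With a replicate block, 1 member was called against IgG, 4 in CPEB1 IP against input and 6 in IgG against input, and Eef1g was at 0.0034 in CPEB1 IP against input. Depth limited Eef2k and Eef1a2 most.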
